A study of Mus musculus with 12 samples.

Results

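The matrix metalloproteinases (MMPs), their tissue inhibitors (TIMPs) and the ADAMTS and ADAMTS-like genes were followed in mouse left ventricle after myocardial infarction, with and without vector-borne Irx3. Members were chosen by name among the protein-coding genes of the count table: symbols beginning with Mmp or Timp and a digit, or with Adamts. The rule left 1 such gene out. It gave 50 genes of 56748 in the table, of which 21970 were protein-coding. RNA came from wild-type C57BL/6J mice in 3 groups of 4 libraries, taken 14 days after surgery, and all 3 groups had received an AAV9 vector through the tail vein. The sham group received control vector and sham surgery. The infarcted control group received control vector and ligation of the left anterior descending coronary artery. The infarcted Irx3 group received the AAV9-Irx3 vector and the same ligation. There was no group with Irx3 vector and sham surgery, so an effect of the vector without infarction was not measured. The labels do not name the promoter in the vector or the region of the ventricle that was sampled.

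MMPs are zinc endopeptidases, secreted or held at the cell membrane, that cut collagens and other extracellular matrix proteins. TIMPs bind their active sites and block them. ADAMTS enzymes are related secreted proteases that trim procollagen, cleave proteoglycans such as versican and aggrecan, or act on the fibrillin microfibril network, while the ADAMTS-like proteins share the accessory domains and lack the protease domain. In the infarcted heart these families are known for breaking down the old matrix and for processing the collagen of the scar.

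Libraries held between 13352604 and 19236721 counts, with 1 library per mouse in the labels and a single batch. Mitochondrial genes took 4.5% to 8.22% of counts in sham hearts, 0.926% to 5.64% in infarcted control hearts and 10.4% to 19% in infarcted Irx3 hearts. With these genes removed, all 17 member calls between vectors and all 27 after infarction were kept, and 2 calls were added after infarction. Irx3 itself lay at 16.8 to 30.5 normalised read counts (CPM, counts scaled to a common library size) in the 8 libraries without the Irx3 vector and at 285 to 513 CPM in the 4 with it, a log2 difference of 4.09 between the infarcted groups (SE 0.25, edgeR adjusted p = 1.48e-06). The labels name cardiomyocytes as the cell type and left ventricle as the tissue. Cardiomyocyte markers made up 86400 to 103000 CPM in sham hearts, and markers of fibroblasts, macrophages and endothelial cells were also present, so the libraries are described here as whole ventricular tissue. In such bulk samples, fewer cells of a type and less RNA per cell cannot be told apart. The vector contrast also moved with base composition. Over 15383 genes, the Spearman correlation of its log2 fold change with GC content was −0.65, and −0.01 after a GC offset. For Irx3 hearts against sham the correlation was −0.44, and −0.01 after the offset. After infarction with control vector it was 0.04, and 0 after the offset. GC-corrected values therefore stand beside many of the uncorrected ones, though not beside all.

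Of the 50 members, 40 passed the filter on low counts and were tested. Mmp7, Mmp1a and Mmp1b had 0 counts in all 12 libraries. The other 7 untested members, Mmp8, Mmp10, Mmp20, Mmp21, Mmp27, Adamts13 and Adamts18, had few counts. Of the tested members, 5 had no sham library above the cutoff of 0.6 CPM (Mmp13, Mmp24, Mmp25, Adamts16 and Adamts19). All 5 passed through infarcted libraries, Mmp13 through the Irx3 group alone. A difference from sham was thus built into the filter for these 5, and for Mmp13 also a difference between vectors. Their values in those comparisons are a description. Where they were called there, the calls are counted below, and the p adds no support.

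After infarction with control vector, most of the measured family rose. Against sham, 24 of the 40 tested members were called higher at an edgeR adjusted p under 0.05, where 26.3% of all 15742 tested genes were, and 3 were called lower (Mmp15, Timp4 and Adamts7), where 22.4% of all genes were. Mmp25, Adamts16 and Adamts19, for which the filter built in a difference from sham, are among the 24. The remaining 13 tested members were not called. With the GC offset 26 were higher and 3 lower, where 29.6% and 22.8% of all genes were. The median log2 fold change of the 40 tested members was 1.46, and that of all tested genes 0.01. The largest fitted rises, leaving aside Adamts16 with 1 sham count, were those of Timp1, Mmp2, Adamts2, Adamtsl2 and Mmp23. The libraries of 25 tested members lay wholly above those of sham and those of 2 wholly below, where 24.5% and 22.8% of all genes did. Among the 25 are Mmp25 and Adamts16, whose difference from sham the filter built in.

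With the Irx3 vector after infarction, 15 members were lower than with control vector and 2 were higher, Mmp13 and Adamts4. Among all tested genes 24.1% were called lower and 25.2% higher. The median of the tested members was −0.56, against 0 for all genes. It was −0.27 without control-vector replicate 4, −1.02 without Irx3 replicate 1, −0.15 without replicate 4 of both groups, and 0.10 without these with the GC offset. With the GC offset, 9 members were called lower and 4 higher, where 13.2% and 14.3% of all genes were, and the members' median was −0.47 against 0.03. In 10 members the call was the same with and without the offset. Libraries of the infarcted groups did not overlap for 10 members that were lower and for 1 that was higher, where 18.9% and 22.1% of all genes did not. The 1 that was higher was Mmp13, whose difference the filter built in.

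Against sham, 23 members were higher in infarcted Irx3 hearts and 9 were lower, where 35.2% and 27.7% of all genes were. Among the 23 are Mmp13, Mmp24, Mmp25, Adamts16 and Adamts19, for which the filter built in a difference from sham. With the GC offset the counts were 24 and 6, where 32.3% and 21.9% of all genes were called. Of the 32 uncorrected calls against sham, 27 were kept with the offset and 3 were added (Adamts1, Adamts10 and Adamts14). The calls of Mmp15, Mmp28, Adamts3, Adamts5 and Adamts6 ended. The 3 comparisons share libraries, so their values are set side by side and their overlap is not read as evidence. The infarcted control libraries enter both the infarction and the vector comparison. Shares of all genes with the patterns below are not given, so the counts of members are not set against them. Of the 24 members that rose after infarction, 9 were called lower with the Irx3 vector, and 6 of these were still called higher than in sham hearts. With the GC offset, 3 of the 9 were called lower between vectors (Mmp2, Adamtsl2 and Adamts1), and all 9 were called higher than sham in Irx3 hearts. Another 5 members, Timp3, Adamtsl4, Adamts9, Mmp28 and Mmp17, were not called after infarction and were lower with the Irx3 vector than in either other group. With the GC offset this held for Timp3, Adamtsl4 and Mmp17, Adamts9 stayed lower in both vector comparisons and was called higher after infarction (log2 0.42, edgeR adjusted p = 0.0455), and the Mmp28 calls ended.

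**Figure D1:**
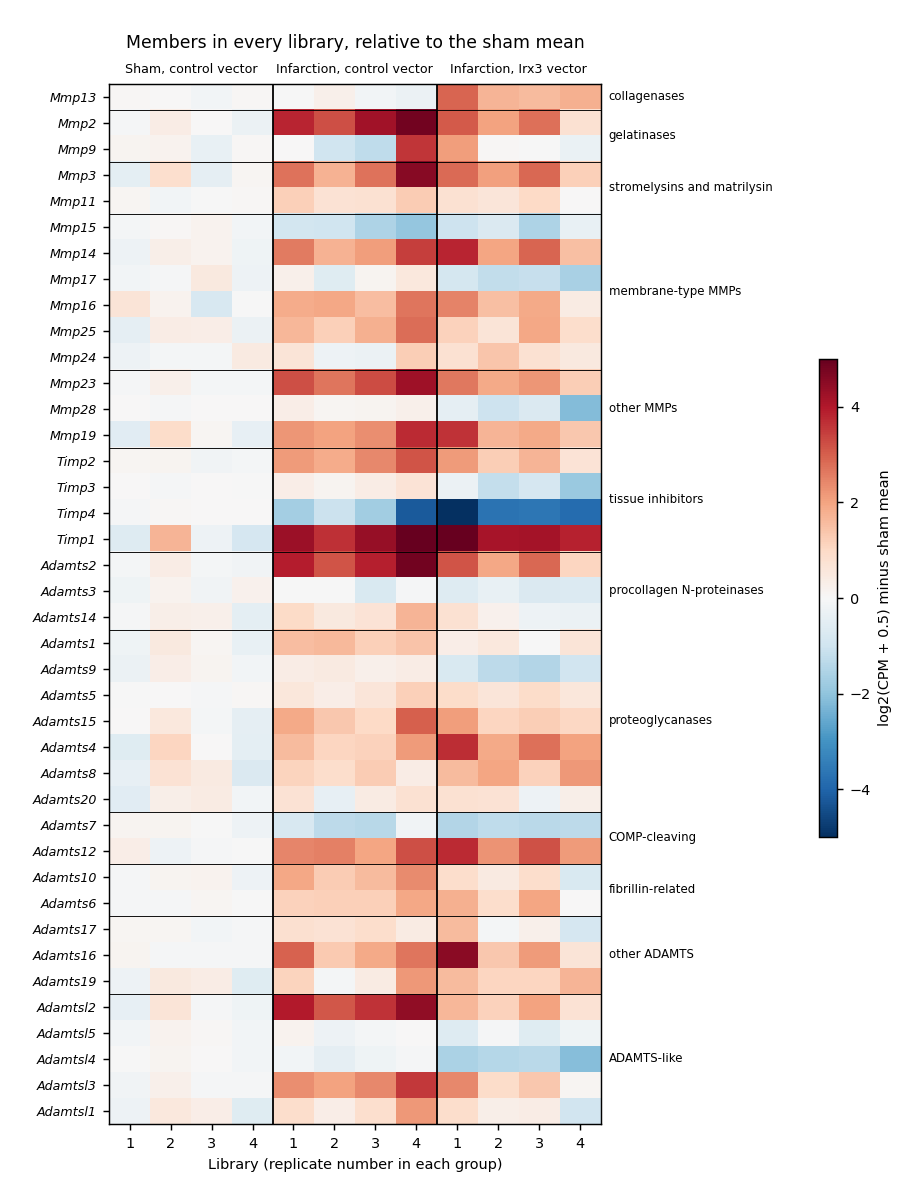
Each row is 1 of the 40 tested members and each column 1 library, with colour giving log2(CPM + 0.5) minus the mean of the 4 sham libraries and saturating at 5; roles are named at the right. The columns of infarcted hearts are mostly red, replicate 4 of the control-vector group most of all, while Timp4, Mmp15 and Adamts7 are blue.

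The gelatinases cut denatured collagen and basement membrane collagen. Mmp2 stood at 56.7, 76.4, 60.3 and 48.3 CPM in sham replicates 1 to 4, at 848, 554, 1100 and 1720 CPM in infarcted control hearts, and at 502, 242, 408 and 101 CPM in infarcted Irx3 hearts. The 3 groups did not overlap: every infarcted control library was above every Irx3 library, and every Irx3 library was above sham. Mmp2 rose 17.5-fold after infarction (log2 4.13, SE 0.48, edgeR adjusted p = 4.44e-05). It was 3.37-fold lower with the Irx3 vector than with control vector (log2 −1.75, SE 0.43, edgeR adjusted p = 0.00464, and −1.21 at 0.049 with the GC offset) and 5.18-fold higher than in sham. Against sham the log2 difference was 2.37, and 2.91 with the GC offset. That call of the vector contrast ended when replicate 4 of both infarcted groups was left out under the GC offset.

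Mmp9, the other gelatinase and a protease stored in neutrophil granules, gave no call in any of the 3 comparisons. Its sham libraries read 2.04, 2.14, 1.3 and 1.95 CPM, its infarcted control libraries 1.85, 0.671, 0.455 and 27.6 CPM, and its Irx3 libraries 9.48, 1.96, 1.8 and 1.37 CPM. Replicate 4 of the control-vector infarcts stood alone at the top, and the other 3 lay at or below the sham level. The log2 difference between Irx3 and control vector was −1.06 (SE 1.01, edgeR adjusted p = 0.406), and it turned to 1.89 (edgeR adjusted p = 0.0423) without that library. Without it, the difference from sham after infarction went from 2.05 to −0.94, neither called. The summed neutrophil markers, a list of 10 genes without any MMP, read 14.2, 20.9, 8.37 and 116 CPM in the infarcted control libraries and 46, 15.7, 26.6 and 7.68 CPM in the Irx3 libraries; their part in the Mmp9 values was not tested. Mmp8, the neutrophil collagenase, read 7.49 CPM in replicate 4 of the control-vector infarcts and at most 0.488 CPM in the other 3, while the Irx3 libraries were level at 0.642, 0.623, 0.49 and 0.532 CPM.

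**Figure D2:**
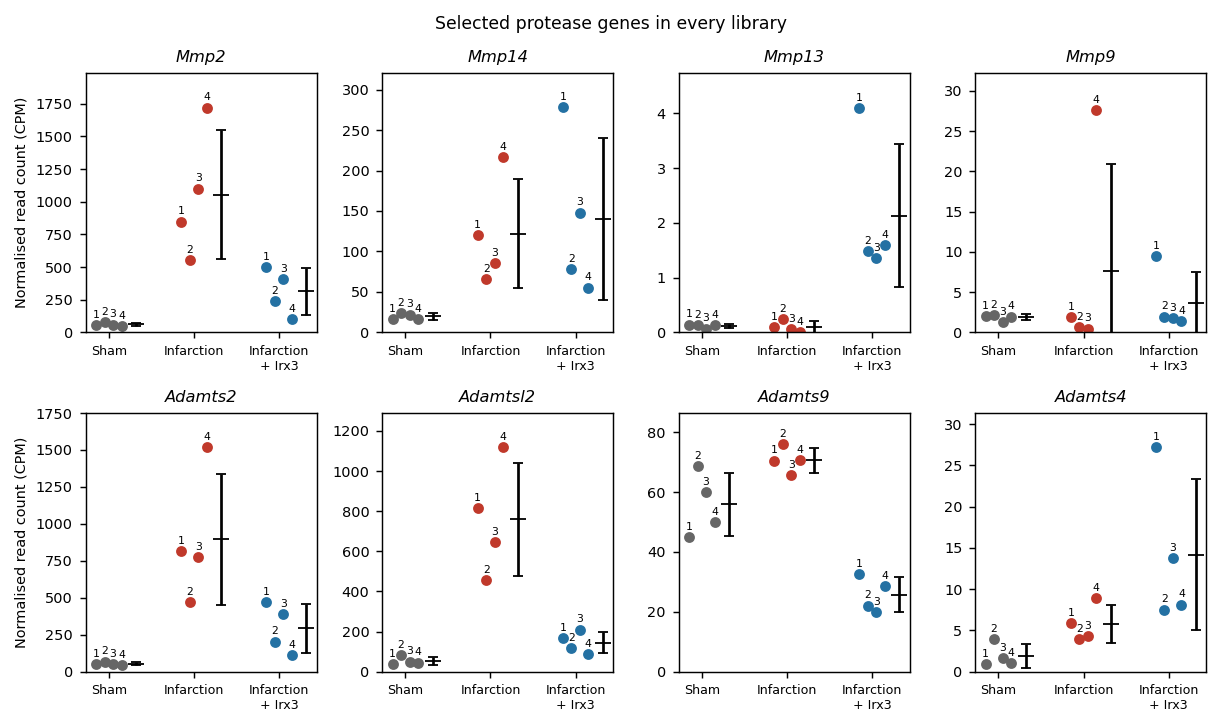
Normalised read counts (CPM, linear axes starting at 0) of 8 members in every library, with replicate numbers above the points and the mean ± SD of 4 libraries at the right of each group, cut at 0 where a bar would pass below it. Mmp2, Adamts2 and Adamtsl2 were high in infarcted control hearts and lower with the Irx3 vector, Mmp14 overlapped between the infarcted groups, Mmp13 was above 1 CPM in the Irx3 libraries and below 0.25 CPM in the other 8, and replicate 4 set the mean of Mmp9.

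The membrane-type MMPs sit at the cell surface, and Mmp14 among them activates pro-MMP2. Mmp14 read 16.1, 24.2, 22 and 16.7 CPM in sham hearts, 120, 65.7, 85.3 and 217 CPM in infarcted control hearts and 278, 78.4, 148 and 55.4 CPM in infarcted Irx3 hearts. Both infarcted groups lay above sham and overlapped with each other. The rise was 6.18-fold after infarction (log2 2.63, SE 0.48, edgeR adjusted p = 0.00072) and 7.09-fold against sham with the Irx3 vector (log2 2.83, and 2.20 without Irx3 replicate 1), and the difference between vectors was 0.20 (SE 0.45, edgeR adjusted p = 0.735). With the GC offset, Irx3 hearts differed from sham by 3.32 (log2), and the vectors by 0.69 (edgeR adjusted p = 0.269). Per kilobase of exon, the ratio of Mmp14 to Mmp2 CPM was 0.16 to 0.206 in sham hearts, 0.0438 to 0.0799 in infarcted control hearts and 0.183 to 0.314 in infarcted Irx3 hearts. The infarcted control libraries thus had the lowest ratio, with no overlap with the Irx3 libraries; this pair was chosen after its values were seen and is given without a test.

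Mmp15, the most abundant membrane-type gene in sham hearts per kilobase, was the member of this class that fell. It went from 228 CPM in sham (212 to 255) to 92.2 CPM in infarcted control hearts (58.5 to 119), a log2 change of −1.31 (SE 0.25, edgeR adjusted p = 0.00108). In Irx3 hearts it read 110, 138, 77.2 and 175 CPM. These libraries overlapped those of control vector (log2 0.44, SE 0.25, edgeR adjusted p = 0.164), and the difference was called with the GC offset (1.06, edgeR adjusted p = 0.0136). Mmp16 rose after infarction from 0.559 to 3.64 CPM (edgeR adjusted p = 0.00241). Mmp25 went from 0.297 to 2.58 CPM (edgeR adjusted p = 0.0013). It passed the filter through infarcted libraries alone, so that p adds no support. Neither Mmp16 nor Mmp25 was called between vectors. Mmp17, a GPI-anchored enzyme, was not called after infarction (11.7 and 12.7 CPM) and read 5.97, 4.6, 4.85 and 3.42 CPM with the Irx3 vector, below every library of both other groups (log2 −1.42 against control vector, SE 0.26, edgeR adjusted p = 0.000739, and −0.85 with the GC offset). Mmp24 read at most 1.25 CPM in any library and was called against sham in Irx3 hearts alone of the 3 comparisons (log2 1.99, edgeR adjusted p = 0.046), a call that ended without any 1 of 7 libraries, sham replicates 1 to 3 and Irx3 replicates 1 to 3 among them. Of its exon bases, 13.6% overlap BC029722 on the other strand.

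Collagenases cut intact fibrillar collagen, and in the mouse Mmp13 is the main one. It was nearly silent in 8 hearts, with 2, 2, 1 and 2 counts in sham and 2, 4, 1 and 0 counts in infarcted control hearts. The 4 Irx3 libraries held 83, 31, 25 and 21 counts, or 4.1, 1.48, 1.36 and 1.6 CPM. Every Irx3 library was thus above every other library, with replicate 1 the highest. The summed counts of 160 and 7 gave a ratio of 22.9 between the infarcted groups (95% interval 10.9 to 57.8, for counting error only). The fitted log2 difference was 4.36 (SE 0.62, edgeR adjusted p = 0.000152), 3.58 with the GC offset and 5.16 without control-vector replicate 2, which held 4 of the 7 counts. Since the gene passed the filter through these same libraries, the p adds no support. Mmp13 is also known from cartilage, and summed cartilage markers read 25.9 to 79.1 CPM in infarcted control hearts and 9.8 to 92.5 CPM in Irx3 hearts, and their part was not tested.

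The promoters of Mmp13 and of the stromelysin Mmp3 are shown because they share motifs while the genes moved apart: Mmp13 differed between vectors, and Mmp3 was called after infarction and not between vectors. Each run is the 250 bases before the annotated start in the RefSeq table of build GRCm38.p6, 5′ to 3′ on the gene's strand, and capitals mark TGANTCA, the AP-1 motif, and TATAAA, the TATA box, both searched on both strands and here without overlap. The Mmp13 window is chr9:7272264-7272513 on the plus strand, with the motifs beginning 35 and 16 bases before the start, and the Mmp3 window is chr9:7445572-7445821 on the plus strand, with them 46 and 7 bases before.
Mmp13: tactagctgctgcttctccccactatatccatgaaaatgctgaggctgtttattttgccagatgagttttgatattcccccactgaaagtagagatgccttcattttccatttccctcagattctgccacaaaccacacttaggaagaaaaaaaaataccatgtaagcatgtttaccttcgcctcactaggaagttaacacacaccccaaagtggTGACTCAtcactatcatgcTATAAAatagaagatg
Mmp3: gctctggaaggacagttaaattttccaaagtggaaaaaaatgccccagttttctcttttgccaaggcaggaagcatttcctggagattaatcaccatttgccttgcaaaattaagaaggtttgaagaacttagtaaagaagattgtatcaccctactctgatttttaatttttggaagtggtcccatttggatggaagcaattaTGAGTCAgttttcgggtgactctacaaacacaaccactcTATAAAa
Of the 35 members with a window, 7 held TGANTCA, all of them MMPs (Mmp1a, Mmp1b, Mmp3, Mmp7, Mmp10, Mmp13 and Mmp20), and 10 held TATAAA. Over all 32851 windows of the table the shares were 6.75% and 12.37%. Of the 7 members with TGANTCA, Mmp3 and Mmp13 had enough counts for a test.

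Stromelysins have a broad range of substrates and can activate other MMPs. Mmp3 read 1.47, 4.33, 1.5 and 2.43 CPM in sham hearts, 17.4, 8.72, 17.2 and 63.1 CPM in infarcted control hearts and 18.7, 10.9, 19.6 and 5.78 CPM in Irx3 hearts. All infarcted libraries were above sham, and the infarcted groups overlapped. The rise after infarction was 10.8-fold (log2 3.44, SE 0.62, edgeR adjusted p = 0.00068), and 5.66-fold without the highest library, replicate 4. Mmp11 rose from 7.72 to 16 CPM (log2 1.05, edgeR adjusted p = 0.00116) and averaged 12.3 CPM with the Irx3 vector. Its call against sham in Irx3 hearts (0.67) ended without Irx3 replicate 3 (0.48, edgeR adjusted p = 0.0706). With the GC offset and all libraries that difference was 1.24 (edgeR adjusted p = 0.000279).

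Among the remaining MMPs, Mmp23, a short membrane-anchored form, read 6.14 to 8.16 CPM in sham hearts. It read 67.1, 45.7, 68.9 and 135 CPM in infarcted control hearts and 44.8, 26.5, 32.8 and 16.6 CPM in Irx3 hearts, so the 3 groups did not overlap. It rose 11.7-fold after infarction (edgeR adjusted p = 2.24e-05) and was 2.61-fold lower between vectors (log2 −1.39, SE 0.32, edgeR adjusted p = 0.00308), a call that ended with the GC offset (−0.69, edgeR adjusted p = 0.0883). Mmp19 rose from 2.36 to 17.1 CPM (log2 2.84, edgeR adjusted p = 0.00195; 2.20 without replicate 4) and read 31.5, 8.09, 9.2 and 6.16 CPM with the Irx3 vector, with no call between vectors. In the annotation, 22.33% of its exon bases overlap Tmem198b on the other strand, and whether counting used strand is not given, so its values are uncertain. Mmp28, or epilysin, lay at 12.9 to 13.9 CPM in sham, 14.6 to 17.3 CPM in infarcted control hearts and 2.66 to 9.82 CPM in Irx3 hearts (log2 −1.22 between vectors, edgeR adjusted p = 0.00243, and −0.59 at 0.128 with the GC offset). Of its exon bases, 12.03% overlap 1700020L24Rik on the other strand.

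The 4 TIMP genes went separate ways. Timp1, the inducible inhibitor, read 0.562, 4.84, 0.887 and 0.417 CPM in sham hearts, 31.6, 19.9, 33 and 88.4 CPM in infarcted control hearts and 64.7, 28.1, 28.5 and 23 CPM in infarcted Irx3 hearts. All 8 infarcted libraries were above sham, and the vectors overlapped. The fitted rise was 25.1-fold (log2 4.65, SE 0.71, edgeR adjusted p = 0.000227), 6.10 on the log2 scale without sham replicate 2 and 3.97 without infarcted control replicate 4. Between vectors the difference was −0.26 (SE 0.57, edgeR adjusted p = 0.728).

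Timp2, which also takes part in the activation of pro-MMP2 by Mmp14, read 109 to 134 CPM in sham hearts. It read 535, 448, 646 and 1070 CPM in infarcted control hearts and 538, 283, 400 and 196 CPM with the Irx3 vector. It rose 5.53-fold after infarction (edgeR adjusted p = 8.7e-05). The vectors overlapped, and the lower value with Irx3 (log2 −0.93, SE 0.31, edgeR adjusted p = 0.0224) was no longer called with the GC offset (−0.51, edgeR adjusted p = 0.238), without control-vector replicate 4 (−0.60), without Irx3 replicate 2 (−0.82) or without Irx3 replicate 4 (−0.73).

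Timp3, which binds to the matrix, read 337, 313, 337 and 327 CPM in sham hearts, 416, 362, 420 and 528 CPM in infarcted control hearts and 268, 145, 181 and 90 CPM in Irx3 hearts. Its infarcted control libraries lay above sham without a call (log2 0.39, SE 0.25, edgeR adjusted p = 0.212), and every Irx3 library lay below both groups. It was 2.52-fold lower with Irx3 than with control vector (log2 −1.33, SE 0.26, edgeR adjusted p = 0.000999, and −1.56 with the GC offset), a call kept in all 24 alternatives run. The annotation places Timp3 within Syn3 on the other strand, and 21.28% of its exon bases overlap exons of that gene.

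Timp4, the inhibitor known for its expression in heart muscle, fell. It read 156, 171, 166 and 165 CPM in sham hearts, 50.5, 77.1, 48.6 and 8.37 CPM in infarcted control hearts and 3.16, 12.1, 13 and 10.9 CPM in infarcted Irx3 hearts. Sham lay above both infarcted groups, and replicate 4 of the control-vector infarcts fell among the Irx3 libraries. The fall after infarction was 3.57-fold (log2 −1.84, SE 0.50, edgeR adjusted p = 0.0085; 0.0568 without the filter on low counts). With Irx3 it was a further 4.72-fold lower than with control vector (log2 −2.24, SE 0.52, edgeR adjusted p = 0.00331, and −2.34 with the GC offset), and 16.8-fold lower than in sham. Cardiomyocyte markers summed to 24700 to 57400 CPM in infarcted control hearts and 27400 to 51500 CPM in Irx3 hearts, and their part in the Timp4 values was not tested. The lowest Timp4 library of each infarcted group, control-vector replicate 4 and Irx3 replicate 1, had 24700 and 27600 CPM of these markers. Irx3 replicate 3, with the highest Timp4 of its group (13 CPM), had the lowest marker sum of that group, 27400 CPM.

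The promoters of Timp1 and Timp4 are shown as examples of TIMPs that moved in opposite directions after infarction. The Timp1 window is chrX:20869916-20870165 on the plus strand and the Timp4 window chr6:115252206-115252455 on the minus strand, both 250 bases before the start in build GRCm38.p6. Neither holds TGANTCA or TATAAA, so no base is in capitals.
Timp1: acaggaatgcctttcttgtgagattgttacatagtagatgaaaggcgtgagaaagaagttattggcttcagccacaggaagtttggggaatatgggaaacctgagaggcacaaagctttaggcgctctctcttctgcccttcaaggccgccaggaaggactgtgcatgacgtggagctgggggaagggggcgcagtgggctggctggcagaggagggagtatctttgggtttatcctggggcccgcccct
Timp4: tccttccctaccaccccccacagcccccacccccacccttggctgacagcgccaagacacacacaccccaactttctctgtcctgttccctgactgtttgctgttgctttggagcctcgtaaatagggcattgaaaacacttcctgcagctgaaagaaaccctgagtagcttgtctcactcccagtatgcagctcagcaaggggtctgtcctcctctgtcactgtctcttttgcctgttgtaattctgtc

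Per kilobase of exon, the make-up of the TIMP pool shifted. In sham hearts Timp3 held 39.8% ± 2.75 (SD, n = 4) of the summed TIMP CPM per kilobase, Timp2 30.9% ± 2.03, Timp4 27.5% ± 1.28 and Timp1 1.79% ± 2.2. In infarcted control hearts Timp2 led with 60.9% ± 2.16, followed by Timp3 with 19.8% ± 3.63, Timp1 with 15.8% ± 4.71 and Timp4 with 3.46% ± 2.62. In infarcted Irx3 hearts Timp2 held 59% ± 3.81, Timp1 26.1% ± 4.44, Timp3 13.6% ± 0.866 and Timp4 1.34% ± 0.8. Timp1 thus passed Timp3 in the Irx3 hearts, whereas Timp3 and Timp1 shares overlapped across the infarcted control libraries. The ratio of summed MMP to summed TIMP CPM per kilobase was 0.762 ± 0.0668 in sham, 1.46 ± 0.172 in infarcted control and 1.12 ± 0.103 in infarcted Irx3 hearts (SD, n = 4), and Mmp2 made up 23%, 74% and 50.4% of the MMP sum. These are shares of transcripts and say nothing of enzyme activity.

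**Figure D3:**
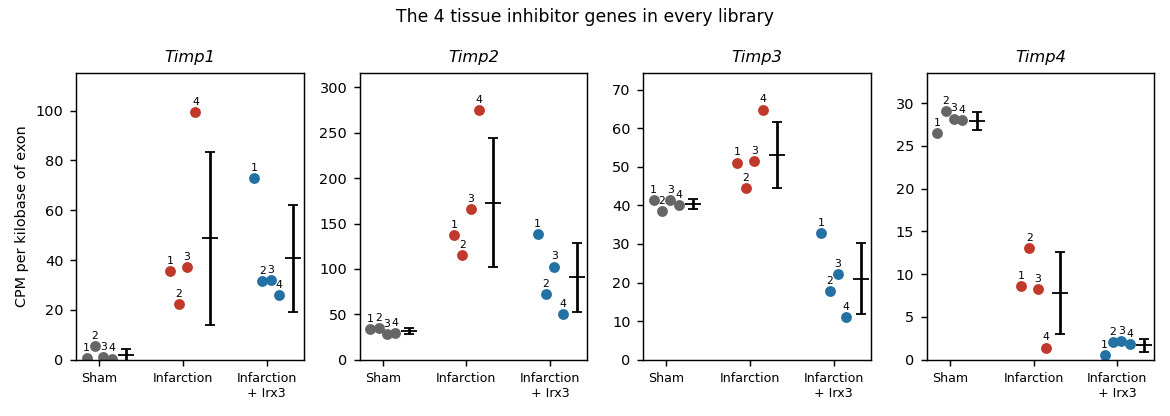
CPM per kilobase of exon of the 4 TIMP genes in every library (linear axes starting at 0), with replicate numbers above the points and the mean ± SD of 4 libraries beside each group. Timp1 and Timp2 were above sham in all 8 infarcted libraries, Timp3 was lowest with the Irx3 vector, and Timp4 was below sham in all 8 infarcted libraries.

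The procollagen N-proteinases cut the amino-terminal propeptide from fibrillar procollagens. Adamts2 read 49.2, 68.6, 49 and 46.4 CPM in sham hearts, 816, 469, 776 and 1520 CPM in infarcted control hearts and 473, 204, 390 and 112 CPM in Irx3 hearts. It rose 16.8-fold after infarction (log2 4.07, SE 0.46, edgeR adjusted p = 4.1e-05). Control-vector replicate 2 and Irx3 replicate 1 met at 469 and 473 CPM, and the other libraries of the infarcted groups were apart. The difference between vectors was −1.60 (SE 0.42, edgeR adjusted p = 0.0065), and −1.13 (edgeR adjusted p = 0.0583) with the GC offset. Adamts14 rose from 6.06 to 12.7 CPM (log2 1.07, edgeR adjusted p = 0.0135; 0.68 at 0.0649 without replicate 4) and averaged 6.74 CPM with Irx3. Its lower value between vectors (−0.91) was lost with the GC offset (−0.22, edgeR adjusted p = 0.579), without control-vector replicate 4 and without Irx3 replicate 2, 3 or 4. Adamts3 averaged 10.3 CPM in sham and 8.88 CPM in infarcted control hearts, with no call, and was lower than sham with Irx3 (6.54 CPM, log2 −0.65, edgeR adjusted p = 0.0109), not so with the GC offset (−0.42, edgeR adjusted p = 0.0751).

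The proteoglycanases cleave versican, aggrecan and related proteins. Adamts1 read 48 to 86.4 CPM in sham hearts, 181, 193, 143 and 167 CPM in infarcted control hearts and 78, 89.5, 60.3 and 95.8 CPM in Irx3 hearts. Control-vector infarcts stood above both other groups, which overlapped. It rose 2.7-fold after infarction (edgeR adjusted p = 0.00011) and was 2.11-fold lower with Irx3 (log2 −1.08, SE 0.19, edgeR adjusted p = 0.000599, and −1.01 with the GC offset), in all 24 alternatives run. Adamts9 read 44.9, 68.6, 59.9 and 50 CPM in sham hearts, 70.5, 75.9, 65.6 and 70.7 CPM in infarcted control hearts and 32.6, 22.1, 19.9 and 28.5 CPM in Irx3 hearts. Every Irx3 library was below every other library (log2 −1.46 against control vector, SE 0.17, edgeR adjusted p = 5.05e-05, and −1.39 with the GC offset), again in all 24 alternatives. Exons of A730049H05Rik and Gm15737 on the other strand overlap 9.18% and 2.82% of its exon bases.

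Adamts4, known as aggrecanase 1, was the ADAMTS gene called higher with Irx3. It read 0.913, 3.96, 1.64 and 1.04 CPM in sham hearts, 5.86, 3.96, 4.27 and 8.94 CPM in infarcted control hearts and 27.2, 7.52, 13.8 and 8.13 CPM in Irx3 hearts. Sham and infarcted control hearts touched at 3.96 CPM, and the infarcted groups overlapped between 7.52 and 8.94 CPM. The log2 difference was 1.60 after infarction (SE 0.51, edgeR adjusted p = 0.0205) and 1.30 between vectors (SE 0.47, edgeR adjusted p = 0.036, and 1.84 with the GC offset). The vector call ended without Irx3 replicate 1 (0.77, edgeR adjusted p = 0.159), without Irx3 replicate 3 and without control-vector replicate 1, 2 or 3, and the infarction call without control-vector replicate 4 (1.24, edgeR adjusted p = 0.0863) or sham replicate 1, 3 or 4. Against sham, Irx3 hearts were 7.42-fold higher (log2 2.89, edgeR adjusted p = 0.000361). Without sham replicate 2, the log2 difference from sham was 2.26 after infarction and 3.55 in Irx3 hearts, both called.

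Adamts5, aggrecanase 2, rose from 31.7 to 52.3 CPM after infarction (log2 0.72, SE 0.16, edgeR adjusted p = 0.00282) and read 53.9 CPM with Irx3. Its difference between vectors was 0.04 (edgeR adjusted p = 0.84), and −0.59 (edgeR adjusted p = 0.0499) with the GC offset. Adamts15 rose from 11 to 44.6 CPM (log2 2.02, edgeR adjusted p = 0.00145; 1.39 without replicate 4) and averaged 29.3 CPM with Irx3, without a call. Adamts8 averaged 1.76, 3.51 and 6.58 CPM in the 3 groups and was called against sham in Irx3 hearts (log2 1.89, edgeR adjusted p = 0.00106); between vectors it gave 0.90 at an edgeR adjusted p of 0.0595, and 1.49 at 0.0106 with the GC offset. Of the Adamts8 exon bases, 10.6% overlap an antisense gene, Gm29724. Adamts20 averaged 1, 1.47 and 1.47 CPM and was called in none of the 3 comparisons.

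Adamts7 and Adamts12 both degrade cartilage oligomeric matrix protein (COMP), and they moved in opposite directions. Adamts7 fell from 72.1 CPM in sham (59.7 to 78.8) to 41.2, 28.8, 27.4 and 62.8 CPM in infarcted control hearts (log2 −0.85, SE 0.22, edgeR adjusted p = 0.00609), and read 25.6 to 29.5 CPM with Irx3. Replicate 4 of the control-vector infarcts lay within the sham range. Adamts12 rose from 1.9 to 14.1 CPM (log2 2.89, SE 0.40, edgeR adjusted p = 0.000125) and averaged 18.3 CPM with Irx3, with a difference between vectors of 0.38 (edgeR adjusted p = 0.38). Comp itself went from 2.02 CPM in sham to 3010 ± 2430 CPM in infarcted control hearts and 282 ± 290 CPM in Irx3 hearts (log2 −3.41 between vectors, edgeR adjusted p = 0.00738).

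Adamts10 and Adamts6 act on the fibrillin network. Adamts10 read 64.4 to 86.1 CPM in sham, 291, 188, 230 and 393 CPM in infarcted control hearts and 142, 104, 143 and 45.1 CPM in Irx3 hearts. It rose 3.57-fold (edgeR adjusted p = 0.000486) and was 2.54-fold lower with Irx3 (log2 −1.34, SE 0.31, edgeR adjusted p = 0.00319), a difference not called with the GC offset (−0.67, edgeR adjusted p = 0.0974). Adamts6 rose from 5.22 to 14.7 CPM (log2 1.49, edgeR adjusted p = 0.00416) and averaged 14.2 CPM with Irx3, with a difference between vectors of −0.05.

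Less is known of Adamts16, Adamts17 and Adamts19. Adamts16 held a single count over the 4 sham libraries and 159 over the infarcted control libraries, a ratio of 129 (95% interval 22.9 to 5140, for counting error only), and read 11.4, 0.814, 1.74 and 0.304 CPM with Irx3. Its fitted log2 fold change, drawn in the plot of fold changes, depends on the prior count and is no bound. Adamts17 averaged 1.89, 3.39 and 2.9 CPM without a call. Adamts19 averaged 0.396, 1.39 and 1.74 CPM, and its infarction call (log2 1.79, edgeR adjusted p = 0.0491) ended without control-vector replicate 4 (0.86, edgeR adjusted p = 0.278) and under 15 further alternatives.

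The ADAMTS-like genes code for matrix proteins without protease activity. Adamtsl2, whose product binds fibrillin and latent TGF-β binding protein, read 39.1, 82.5, 50.5 and 45 CPM in sham hearts, 816, 456, 647 and 1120 CPM in infarcted control hearts and 166, 117, 210 and 87.1 CPM in Irx3 hearts. The 3 groups did not overlap. It rose 14-fold after infarction (log2 3.81, SE 0.36, edgeR adjusted p = 1.87e-05) and was 5.24-fold lower with Irx3 than with control vector (log2 −2.39, SE 0.34, edgeR adjusted p = 0.000146, and −1.97 with the GC offset). Adamtsl4, also a fibrillin-binding protein, read 172 to 206 CPM in sham, 139 to 180 CPM in infarcted control hearts and 62.1, 69.5, 72.9 and 42.6 CPM with Irx3. It was not called after infarction (log2 −0.20, edgeR adjusted p = 0.307) and was 2.65-fold lower with Irx3 (log2 −1.41, SE 0.16, edgeR adjusted p = 4.39e-05, and −0.74 with the GC offset). Both vector calls held in all 24 alternatives.

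Adamtsl3 rose from 11.5 to 77 CPM after infarction (log2 2.74, edgeR adjusted p = 0.000346) and averaged 31.6 CPM with Irx3. Its lower value between vectors (−1.28, edgeR adjusted p = 0.0218) was not called with the GC offset (−1.26, edgeR adjusted p = 0.0512), without control-vector replicate 4 (−0.82) or without Irx3 replicate 2 or 3. Adamtsl1 rose from 7.09 to 16.3 CPM (log2 1.20, edgeR adjusted p = 0.0387), a call lost under 12 of the 24 alternatives. Adamtsl5 averaged 242, 236 and 188 CPM and was called in none of the comparisons.

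**Figure D4:**
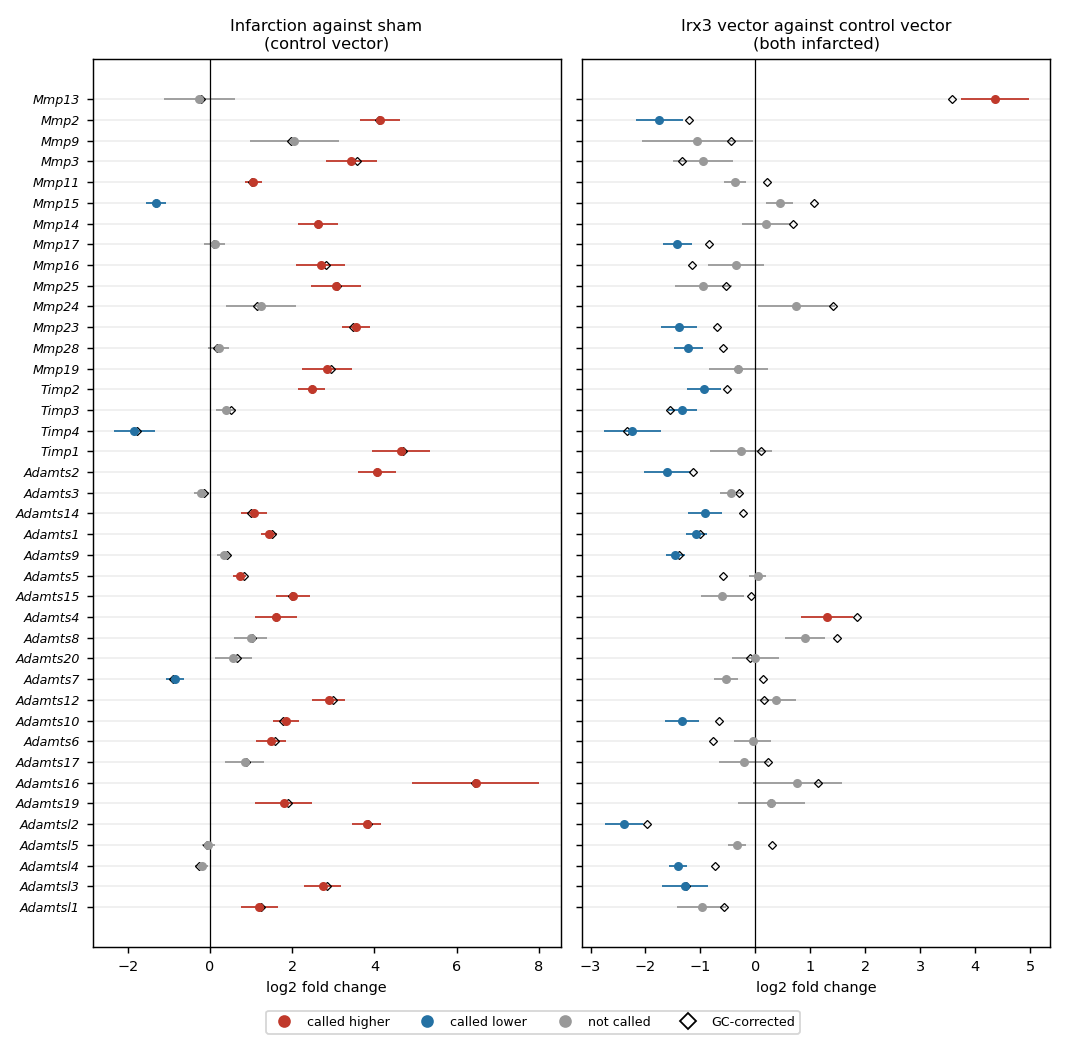
Log2 fold changes of the 40 tested members after infarction (left) and between Irx3 and control vector after infarction (right), with bars of 1 SE, filled points for uncorrected values and open diamonds for GC-corrected values. After infarction the diamonds lie on the points, while between vectors many diamonds sit to the right of the points, as for Mmp15 (0.44 and 1.06) and Mmp23 (−1.39 and −0.69).

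Genes that activate or restrain these proteases were counted from separate lists. Of 16 genes of MMP activation and control, 13 were tested. After infarction 8 were higher and 2 lower, where 26.3% and 22.4% of all tested genes were. Between vectors 1 was higher and 6 were lower, where 25.2% and 24.1% of all tested genes were. With the GC offset the counts between vectors were 0 and 4, where 14.3% and 13.2% of all genes were. Reck, a membrane-bound MMP inhibitor, went from 9.92 ± 1.18 to 56.2 ± 16.5 and 18.5 ± 5.48 CPM (log2 −1.60 between vectors, edgeR adjusted p = 0.000147, and −1.65 with the GC offset). Furin, a proprotein convertase that activates membrane-type MMPs, was lower in each step, at 515 ± 87.1, 324 ± 44.3 and 137 ± 7.65 CPM. The gene of plasminogen, Plg, averaged at most 0.0876 CPM and was not tested.

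Of the 5 procollagen C-proteinase genes, 4 were higher and 1 lower after infarction and 3 were lower between vectors, 1 with the GC offset, among the 3 Bmp1 (84.9, 414 and 161 CPM in the 3 groups, log2 −1.36 between vectors, edgeR adjusted p = 0.00867). That difference was −0.73 (edgeR adjusted p = 0.137) with the GC offset. Of 11 ADAM genes, which code for sheddases and relatives, 10 were tested, with 6 higher and 1 lower after infarction. Between vectors 3 were higher and 3 lower, shares near the 25.2% and 24.1% of all genes, and 1 and 2 with the GC offset. Of 19 substrate genes, 17 were tested. All 17 were higher after infarction, with a median log2 fold change of 3.95. Between vectors 1 was higher, the fibrillin gene Fbn2 (10.5 and 25.9 CPM, log2 1.30, edgeR adjusted p = 0.0196), and 6 were lower, or 1 and 3 with the GC offset. For the lists of this paragraph, 26.3% of all tested genes were higher and 22.4% lower after infarction. Between vectors these shares were 25.2% and 24.1%, or 14.3% and 13.2% with the GC offset. Vcan, the versican gene and a substrate of the proteoglycanases, averaged 11.3, 58.2 and 102 CPM and was not called between vectors (log2 0.81, edgeR adjusted p = 0.0877).

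Markers of the cells that make these proteins moved in the same libraries. Summed fibroblast markers (7 genes) read 1950 to 2320 CPM in sham hearts, 10200, 6860, 11300 and 21200 CPM in infarcted control hearts and 10900, 4750, 6550 and 2700 CPM in Irx3 hearts. Most of the infarcted control sum came from Col1a1 and Gsn (554501 and 246306 counts). Between vectors 3 of the 7 were called lower and 0 higher, or 4 and 0 with the GC offset. For this and the next 2 marker lists, 24.1% of all tested genes were called lower between vectors and 25.2% higher. With the GC offset these shares were 13.2% and 14.3%. Lum alone held more counts in Irx3 hearts (15466) than in infarcted control hearts (11638). Markers of matrifibrocytes, the cells of the mature scar, read 11.3 to 21.9 CPM in sham, 3570, 2100, 3930 and 9830 CPM in infarcted control hearts and 880, 197, 515 and 32.2 CPM in Irx3 hearts. All 5 matrifibrocyte markers were higher after infarction, where 26.3% of all genes were, and lower between vectors. The 5 activated-fibroblast markers overlapped between vectors, at 1020 to 1700 and 699 to 2310 CPM, with 1 of them called lower, or 2 with the GC offset. Among the 40 tested members, control-vector replicate 4 was the highest infarcted control library for 29 and replicate 2 the lowest for 25, and Irx3 replicate 1 was the highest Irx3 library for 24 and replicate 4 the lowest for 27. These are the libraries with the highest and lowest fibroblast markers of their groups, and the part of cell make-up in the members' differences was not tested. Control-vector replicates 4 and 2 also had the highest and lowest macrophage markers (1130 and 502 CPM). For cardiomyocyte markers their order was reversed (24700 and 57400 CPM). Irx3 replicate 4 had the lowest macrophage and highest cardiomyocyte markers (335 and 51500 CPM). The other end was Irx3 replicate 3, not replicate 1 (635 and 27400 CPM). Without replicate 4 of both infarcted groups, 22 members were called higher and 3 lower after infarction. Between vectors, 12 members were then called lower and 4 higher, and with the GC offset as well 6 and 7. The shares of all genes called under these settings are not given, so the counts are not set against them.

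**Figure D5:**
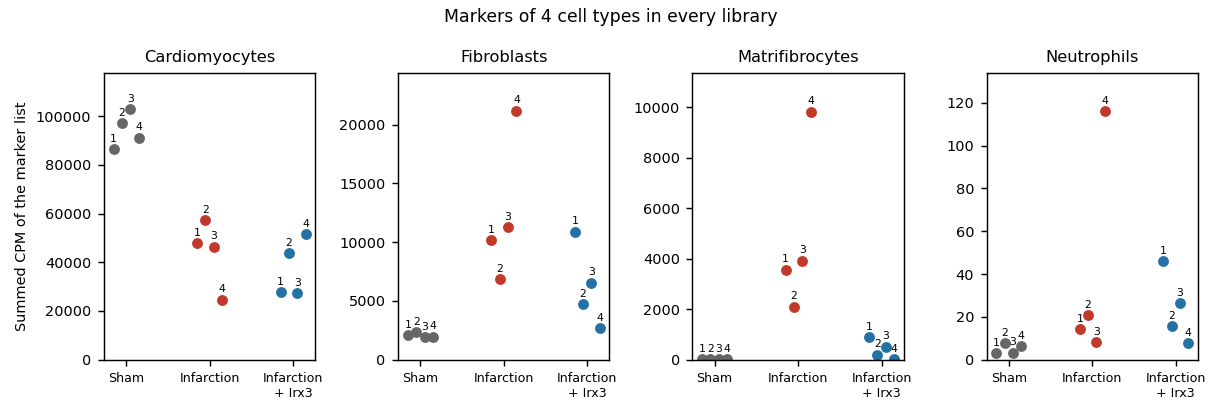
Summed CPM of marker lists for 4 cell types in every library (linear axes starting at 0), with replicate numbers above the points. Fibroblast, matrifibrocyte and neutrophil markers were highest in replicate 4 of the infarcted control hearts, while cardiomyocyte markers of the infarcted groups overlapped.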

How the data were processed

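Poly(A)-selected RNA-seq of mouse left ventricle was deposited as 1 table of raw counts per gene for 12 libraries. Per the submitters' processing notes, the authors trimmed reads with fastp and used genome build GRCm39; for alignment, counting, annotation and strand handling, the tool or setting is not given in the sources used here. Counts as deposited by the authors were whole numbers and were used as they stand. Groups followed the treatment in the labels.

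Genes were filtered with filterByExpr, scaled by TMM and tested with edgeR 4.0.16 (quasi-likelihood, all 3 groups in 1 fit, Benjamini-Hochberg over 15742 genes) in R 4.3.3; a gene was called at an adjusted p under 0.05. CPM used TMM-scaled library sizes. A second fit carried a per-library offset fitted to GC content, known for 97.7% of tested genes and all 40 tested members. Exon lengths and GC came from GENCODE M21 (GRCm38), matched by symbol, and promoters from RefSeq (GRCm38.p6). Alternatives were RLE and upper-quartile scaling, DESeq2 1.42.0, other filters, removal of mitochondrial genes, fits to 2 groups, a replicate block and leaving out libraries. The test was checked on simulated data. The lowest chi-square per degree of freedom between any 2 libraries was 7.31, so none was counted as a repeat. Members with values are the leading ones of each role by CPM, up to 4 per role, the 10 largest changes of each comparison and every member called between vectors. Members outside that rule, such as Mmp24, Adamts8 and Adamts20, were named after their values were seen, to account for all 50. Members and lists were chosen with earlier results of these data known. The p-values measure the spread between these mice. A gene of the list of MMP activation and control is counted there and not reported by name here.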

Additional observations from a re-analysis of the deposited data

Results flagged for a closer look

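In 36 members with enough counts, each group of 4 libraries was searched for a library whose gap to its nearest neighbour, divided by the range of the group, passed Dixon's 95% critical value. Of 108 groups, 8 had such a library, and chance gives about 1 in 20. In sham hearts, replicate 2 stood apart for Mmp23 (8.16 CPM, ratio 0.862), for Adamts2 (68.6 CPM, 0.852) and, as the lowest, for Mmp28 (12.9 CPM, 0.84), and replicate 1 held the single count of Adamts16 (0.0702 CPM, ratio 1). Counts of 1, 0, 0 and 0 give that ratio by construction, so this 1 of the 8 flags marks no outlier. In infarcted control hearts, replicate 3 was the lowest for Adamts3 (5.75 CPM, 0.925) and replicate 4 the highest for Adamts6 (21.4 CPM, 0.928). In infarcted Irx3 hearts, replicate 1 was the highest for Mmp13 (4.1 CPM, 0.858) and the lowest for Timp4 (3.16 CPM, 0.877). Without Irx3 replicate 1, the Mmp13 difference from sham was log2 3.51 in place of 4.10 (edgeR adjusted p = 0.000353). The filter built in that difference, so the p adds no support.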

How the results depend on the processing

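Under 24 alternatives, 1 of them with a replicate block and GC offset added after seeing the data, 20 of the 24 members called higher after infarction and 2 of the 3 called lower kept their call in every run. Among the 20 were Mmp25 and Adamts16, whose difference from sham the filter built in. Between vectors, 1 of 2 higher calls (Mmp13, whose difference the filter built in) and 6 of 15 lower calls did. The count called higher between vectors, 2 in the report, was 1 without the filter on low counts, 4 with the GC offset, 4 without replicate 4 of both infarcted groups, 7 without them and with the GC offset, and 1 to 3 with single libraries left out. The count called lower, 15 in the report, was 9 with the GC offset, 6 without both replicates 4 and with the GC offset, and 12 to 17 with single libraries left out. Leaving out single libraries gave 21 to 26 higher after infarction, and 21 to 24 higher and 9 to 10 lower against sham with Irx3. Shares of all genes are not given for settings with libraries left out or without the filter on low counts. The counts under those settings are therefore not set against all genes. The difference of Mmp9 between vectors was −2.16 without Irx3 replicate 1 and turned to 1.89 without control-vector replicate 4, to 2.12 without both replicates 4 and to 2.62 with the GC offset as well. That of Adamts14 turned to 0.14 without both replicates 4 and with the GC offset, and that of Adamts5 to −0.59 with the GC offset. The cause was not tested. The GC offset moved the median of all genes by 0.14 (log2) for Irx3 hearts against sham.

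Replicate numbers did not pair the libraries: deviations of same-numbered libraries correlated at −0.6 to 0.18, 2 of 12 pairs were over 0.1, and 0 of 12 libraries correlated best with its own number. With the replicate block, 21 members were higher and 3 lower after infarction, 1 higher and 13 lower between vectors, and 23 higher and 9 lower against sham with Irx3. With the block and the GC offset, 4 were higher and 7 lower between vectors. Shares of all genes called with the block are not given, so these counts are not set against them.

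Depth limits the members near the floor. Without the filter, 7 further members had a fit, and Mmp27 was called after infarction (log2 2.82, edgeR adjusted p = 0.0469).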

Other observations

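A few members outside the comparisons' calls can be given as values. Adamts13, the protease of von Willebrand factor, held 5 counts in sham, 8 in infarcted control and 2 in infarcted Irx3 hearts, while its substrate gene Vwf averaged 171, 330 and 127 CPM (log2 −1.37 between vectors, edgeR adjusted p = 0.000819, and −0.79 with the GC offset). Adamts18 held 8 counts in Irx3 hearts and 0 in infarcted control hearts (log2 3.93, edgeR adjusted p = 0.0725, without the filter on low counts). Mmp27 read 0.0514, 0.244, 0.569 and 1.7 CPM in infarcted control hearts and at most 0.211 CPM in sham hearts. Spp1, the osteopontin gene and an MMP substrate, averaged 0.332, 20 and 130 CPM in the 3 groups, with an SD of 231 CPM in Irx3 hearts and no call between vectors (log2 2.70, edgeR adjusted p = 0.0723).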
